A study of Mus musculus with 21 samples.

Results

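The genes of the STAT family analysed here were Stat2, Stat3, Stat4, Stat5a, Stat5b and Stat6. They were matched by symbol in the table of normalised values, and their identifiers were then looked up in the count table. All 6 had enough reads for the tests, out of 47643 genes in the count table and 15300 that passed the filter on low counts. RNA came from splenic CD4+ T cells of Tg4 Tiger Nr4a3-Tocky mice, which carry a transgenic T cell receptor (TCR) for a myelin basic protein (MBP) peptide, a GFP reporter of Il10 and a fluorescent Timer protein controlled by Nr4a3. The Timer is blue when new and red when mature, so it reads out how long ago TCR signalling began. The [4Y] MBP peptide was given under the skin without adjuvant, at a dose of 0.8 µg or 80 µg, spleens were taken 4 h, 12 h or 24 h later, and control mice of the same strain were untreated. There were 3 mice in each of 7 groups, which gives 21 libraries, and mice of both sexes were used without the sex or age of a mouse being given in the labels. The Timer gate was Blue+Red- for the 4 h samples, Blue+Red+ for those of 12 h and Blue-Red+ for the last time, so time and gate cannot be told apart, and the gate used for the control cells is not given in the sources used here.

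STAT proteins lie latent in the cytoplasm until a cytokine receptor brings Janus kinases together, which phosphorylate the receptor and then the STAT. The phosphorylated STAT pairs with another, enters the nucleus and binds DNA. STAT2 acts with IRF9 downstream of type I interferon, STAT3 downstream of IL-6, IL-10 and IL-21, STAT4 downstream of IL-12, STAT5A and STAT5B downstream of IL-2 and IL-7, and STAT6 downstream of IL-4. In CD4+ T cells STAT4 is known for T helper 1 responses, STAT6 for T helper 2 responses, and STAT3 for IL-17-producing and follicular helper cells. What was measured here is the messenger RNA of these genes and not the phosphorylation that activates their proteins.

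In the GENCODE vM21 annotation of GRCm38, Stat4 lies at chr1:51987148-52107189 on the plus strand. Stat6 and Stat2 lie on chromosome 10, at chr10:127642986-127660957 and chr10:128270559-128292849, both on the plus strand. The other members form a cluster of 158810 bases on chromosome 11, with Stat5b at chr11:100780731-100850724 on the minus strand, Stat5a at chr11:100859351-100885169 on the plus strand and Stat3 at chr11:100885098-100939540 on the minus strand. Stat5a and Stat3 run towards each other, and their exons share 72 bases at chr11:100885098-100885169. The 3′ end of Stat6 likewise shares 40 bases with Nab2 on the opposite strand. Because 3′ mRNA sequencing reads the ends of transcripts, reads from such stretches can be told apart only if strand was used in counting, and the strand setting is not given in the sources used here. Stat4 shares 1033 exonic bases with Gm28177 on its own strand, and Gm28177 had at most 3 counts in any library. Stat5a and Stat5b are closely related copies, so reads from stretches that they share may not be assignable to either.

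RefSeq promoter windows on GRCm38.p6, from 250 bases before to 50 bases after each start site, were found for 6 of 6 members, in 9 windows. A core of the interferon-stimulated response element, GAAANNGAA, was searched on both strands because STAT2 with IRF9 binds elements of this kind, and 2 of the 9 windows held it, against 8.56% of 32851 RefSeq windows of the same length. The GAS element TTCNNNGAA, bound by STAT pairs, and the AP-1 element TGANTCA, searched in the same way, occurred in 0 of the 9 windows, against 8.3% and 7.81% of all windows. A match is a description of these letters and not a bound site. Both windows with the interferon element are shown, and the window of the other Stat4 start site is shown for comparison. Capitals mark the match, which begins 221 bases before the start site in Stat2 and 97 bases before it at the downstream Stat4 start.
Stat2 promoter, chr10:128270248-128270547, plus strand: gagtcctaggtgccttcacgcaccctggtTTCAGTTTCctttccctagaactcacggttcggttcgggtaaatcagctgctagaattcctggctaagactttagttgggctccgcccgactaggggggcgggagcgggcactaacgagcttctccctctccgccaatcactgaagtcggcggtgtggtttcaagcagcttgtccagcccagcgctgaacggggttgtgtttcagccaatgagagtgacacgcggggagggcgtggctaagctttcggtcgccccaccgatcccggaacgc
Stat4 downstream promoter, chr1:52007990-52008289, plus strand: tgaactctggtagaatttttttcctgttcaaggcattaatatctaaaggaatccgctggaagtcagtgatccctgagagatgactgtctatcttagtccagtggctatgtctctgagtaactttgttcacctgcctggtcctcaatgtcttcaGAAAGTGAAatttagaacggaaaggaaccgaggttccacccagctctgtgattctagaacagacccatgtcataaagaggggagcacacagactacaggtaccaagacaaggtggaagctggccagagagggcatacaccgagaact
Stat4 upstream promoter, chr1:51986898-51987197, plus strand: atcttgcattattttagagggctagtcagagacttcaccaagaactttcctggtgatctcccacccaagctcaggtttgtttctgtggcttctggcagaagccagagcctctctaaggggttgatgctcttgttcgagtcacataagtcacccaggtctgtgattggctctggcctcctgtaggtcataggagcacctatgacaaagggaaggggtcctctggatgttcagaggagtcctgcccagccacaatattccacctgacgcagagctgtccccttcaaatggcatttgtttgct

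Library totals ranged from 2352800 to 6244279 counts, and member counts in single libraries from 1 (Stat4) to 4546 (Stat3). Levels are normalised read counts, that is counts divided by the DESeq2 size factor of the library, and they are compared here between groups and not between genes. The reporter gene Nr4a3 was at 26.1 ± 12.3 normalised counts (SD, n = 3) in control, and at 3536 ± 102 and 3299 ± 96.3 with 0.8 µg and 80 µg at 4 h. Its means were higher with 0.8 µg than with 80 µg at both later times. They were 562 ± 180 and 154 ± 35.1 at 12 h, and 54.2 ± 34.5 and 9.09 ± 5.27 at 24 h. Summed levels of 8 CD4 T cell markers lay between 1393 and 3467 CPM (counts scaled to the library total) over all libraries, against 2.32 to 96.6 CPM for 6 B cell markers, 0.46 to 30.6 CPM for 7 myeloid markers, 13.1 to 51.3 CPM for 2 CD8 T cell markers, 9.48 to 52.5 CPM for 2 plasmacytoid dendritic cell markers, 0 to 25.3 CPM for 3 NK cell markers and 5.31 to 211 CPM for 5 erythroid markers. In bulk RNA, fewer cells expressing a gene and less RNA per cell cannot be told apart.

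**Figure D1:**
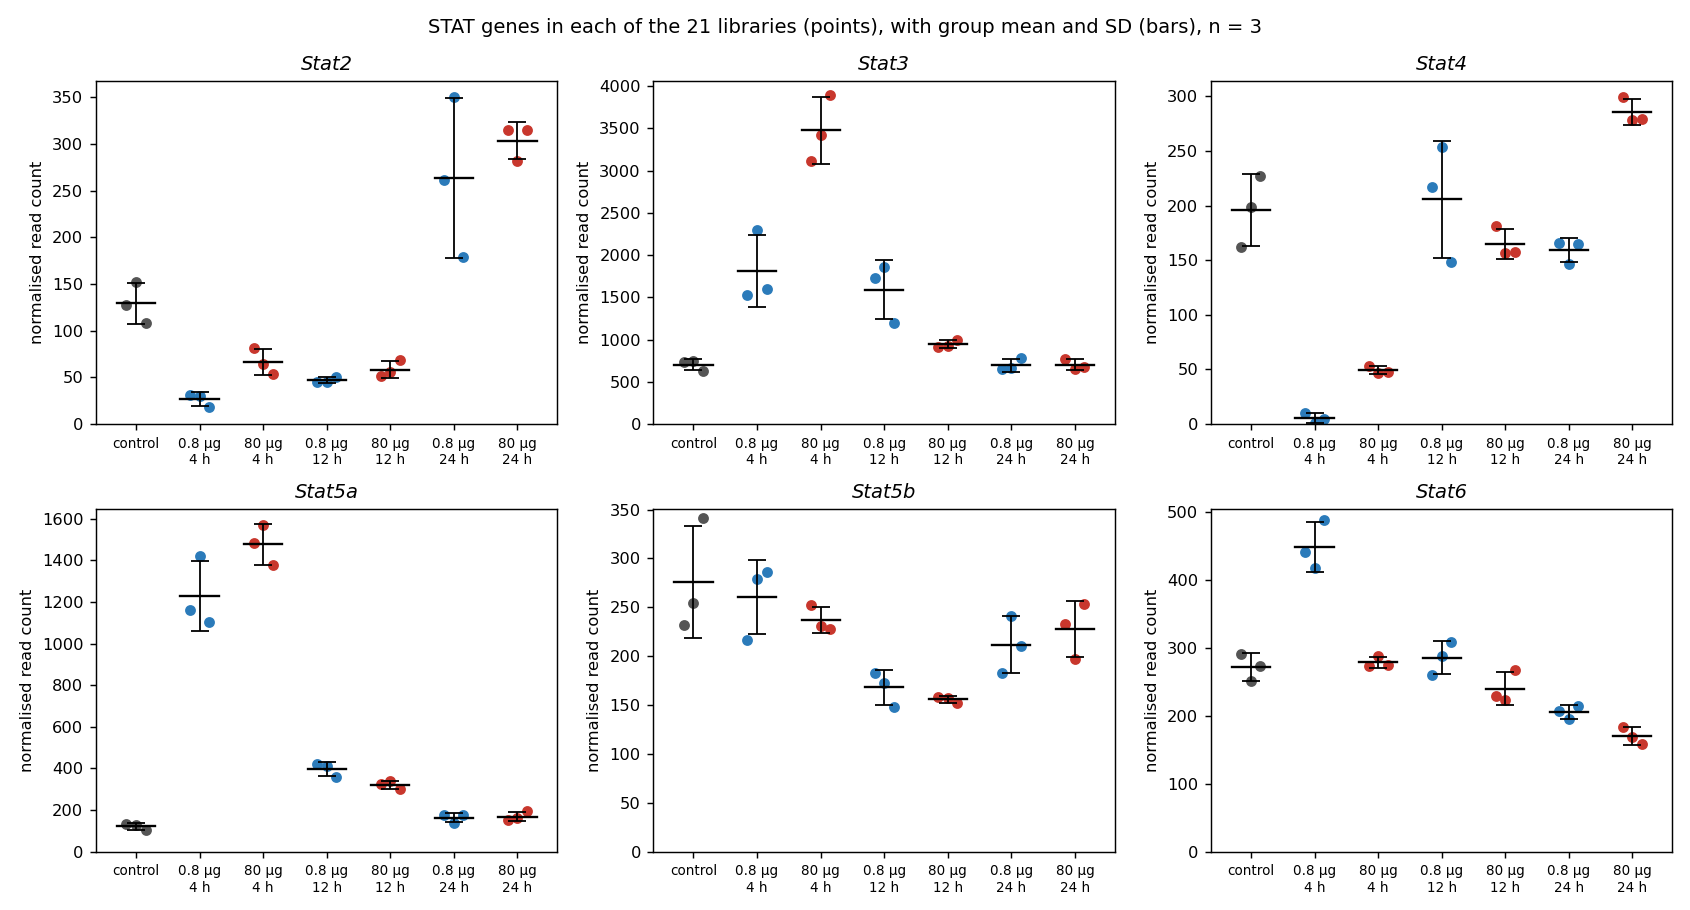
Normalised read count (y axis) of each STAT gene in every library by group (x axis). Points are libraries of single mice, and the lines and error bars are the mean and SD of 3 mice. Stat5a and Stat3 peaked at 4 h, Stat2 and Stat4 were lowest with 0.8 µg at 4 h, and Stat6 was highest there.

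The first comparison asks which STAT genes differ between a weak and a strong TCR stimulus at the same time. A gene is said to have changed when its DESeq2 adjusted p was under 0.05, and to be called when its shrunken log2 fold change was also above 1 in size. At 4 h, 4 of the 6 members changed and 2 were called (Stat4 and Stat2, both higher with 80 µg), beside 12% of 10848 genes changed and 5.85% called. The median log2 fold change of the members was 0.60, beside -0.023 over all genes tested. At 12 h 1 member changed (Stat3) and 0 were called, beside 6.27% and 2.79% of all genes, with medians of -0.28 and 0.0098. At 24 h 1 member changed (Stat4) and 0 were called, beside 5.93% and 1.56%, with medians of 0.080 and 0.018.

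Stat4, the mediator of IL-12 signalling, had the largest dose effect among the members at 4 h. With 0.8 µg its level was 10.1, 1.32 and 4.32 normalised counts in the 3 mice, from 10, 1 and 4 reads, and with 80 µg it was 53.2, 46.5 and 48.0. Every library of the high dose lay above every library of the low dose. The shrunken log2 fold change of 80 µg against 0.8 µg was 2.87 ± 0.38 (SE, n = 3, adjusted p = 1.08e-11), a 7.32-fold difference, and it stayed between 2.48 and 3.33 when any 1 of the libraries was left out. At 12 h the 0.8 µg libraries held 217, 253 and 148 normalised counts and the 80 µg libraries 181, 156 and 157, so the groups overlapped, and the log2 fold change of -0.33 (95% interval of the unshrunken value -0.70 to 0.034) did not pass. At 24 h the order of 4 h returned, with 165, 146 and 165 normalised counts at the low dose and 299, 278 and 279 at the high dose, a log2 fold change of 0.84 ± 0.18 (adjusted p = 0.000362). Stat4 is also part of the TCR.strong gene score, which the study chose in part from the 4 h dose comparison of these samples. The study also drew on genes raised by anti-PD1 in a separate mouse experiment and on genes of melanoma patients who responded to nivolumab. The direction of Stat4 at 4 h here is therefore not independent evidence for that score.

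Stat3, the mediator of IL-6 family and IL-21 signalling, had dose effects of opposite sign at 4 h and 12 h. At 4 h it was at 1530, 2299 and 1598 normalised counts with 0.8 µg and at 3113, 3424 and 3898 with 80 µg, without overlap, a log2 fold change of 0.94 ± 0.15 (SE, n = 3, adjusted p = 5.89e-09). It was above the fold threshold of 1 when replicate 2 of the low dose (1.15) or replicate 1 of the high dose (1.01) was left out. At 12 h the order was the opposite, with 1727, 1854 and 1195 normalised counts at 0.8 µg above 907, 924 and 997 at 80 µg, a log2 fold change of -0.75 ± 0.15 (adjusted p = 2.28e-05). By 24 h the means were 695 ± 73.9 and 702 ± 64.4, the groups overlapped, and the interval of the difference was -0.28 to 0.31.

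Stat2, the partner of IRF9 in the interferon response, was at 31.3, 30.3 and 18.3 normalised counts with 0.8 µg at 4 h and at 81.0, 63.9 and 54.0 with 80 µg. All high-dose libraries were above all low-dose libraries, with a log2 fold change of 1.27 ± 0.28 (SE, n = 3, adjusted p = 0.000104). At 12 h the means were 46.9 ± 3.10 and 58.3 ± 8.73 (SD) and the libraries did not overlap, but the log2 fold change of 0.31 had an interval of -0.19 to 0.82 and did not pass. At 24 h the 0.8 µg libraries were spread from 179 to 351 around the 80 µg libraries at 281 to 315, and the interval was -0.22 to 0.63.

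Stat6, the mediator of IL-4 signalling, was lower with the high dose at 4 h. It was at 441, 418 and 489 normalised counts with 0.8 µg against 274, 289 and 275 with 80 µg, a log2 fold change of -0.68 ± 0.12 (SE, n = 3, adjusted p = 3.83e-07). The low-dose libraries stood above all 18 others in the series. Nab2, whose 3′ end overlaps that of Stat6, was also highest there, at 482 ± 64.0 normalised counts against 196 ± 39.8 with 80 µg and 117 ± 0.58 in control, and its part in the Stat6 counts was not tested. At 12 h and 24 h the log2 fold changes of Stat6 were -0.25 (interval -0.49 to -0.012) and -0.28 (-0.53 to -0.025), and neither passed after adjustment (adjusted p = 0.262 and 0.228).

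Stat5a and Stat5b, the mediators of IL-2 and IL-7 signalling, did not pass in any dose comparison. For Stat5a at 4 h the levels were 1163, 1421 and 1105 normalised counts with 0.8 µg and 1485, 1570 and 1375 with 80 µg, which overlapped, and the log2 fold change was 0.26 (interval 0.035 to 0.50, adjusted p = 0.143). It passed without replicate 2 of the low dose (0.38, adjusted p = 0.0233) and in a fit of those groups alone (0.28, adjusted p = 0.0402). The values at 12 h and 24 h were -0.31 (-0.56 to -0.063) and 0.053 (-0.22 to 0.33). For Stat5b the intervals were -0.46 to 0.18 at 4 h, -0.44 to 0.22 at 12 h and -0.21 to 0.43 at 24 h, which leaves room for differences of that size.

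**Figure D2:**
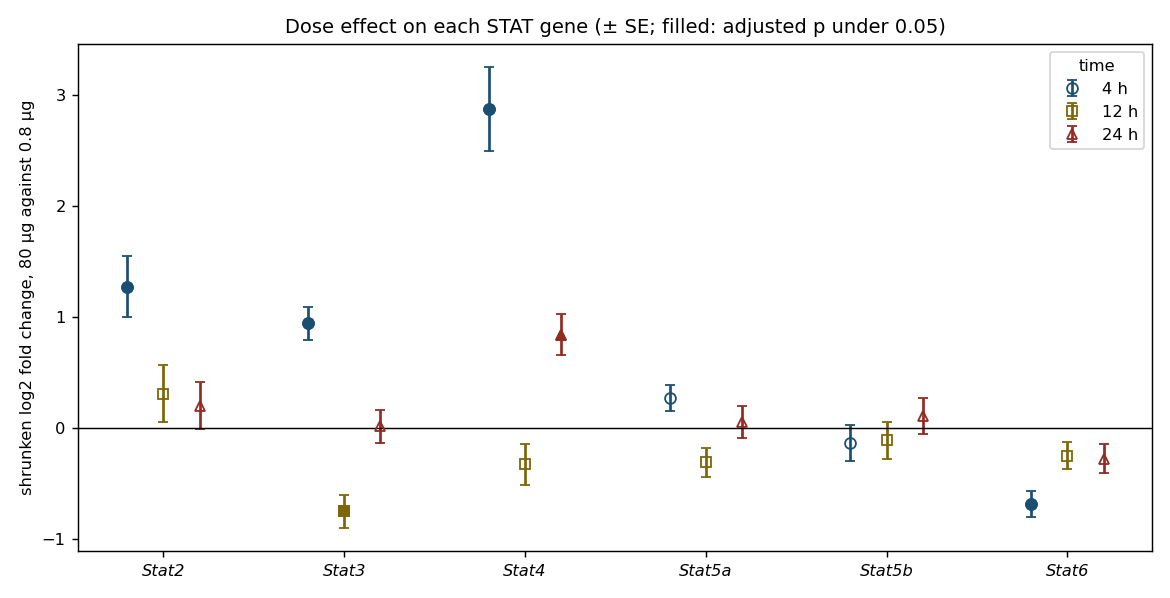
Shrunken log2 fold change of 80 µg against 0.8 µg (y axis) for each STAT gene (x axis) at 4 h, 12 h and 24 h, with the SE as error bars and 3 mice per group. Filled symbols had an adjusted p under 0.05, namely Stat2, Stat3, Stat4 and Stat6 at 4 h, Stat3 at 12 h and Stat4 at 24 h.

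Whether the dose effect itself differed between times was tested with a likelihood ratio test of the dose by time interaction on the 18 immunised samples. The interaction passed for 3 of 6 members, Stat4, Stat3 and Stat5a, beside 10.4% of all genes tested. For Stat4 the dose effect at 12 h minus that at 4 h was -3.47 ± 0.47 (SE) on the log2 scale, and the effect at 24 h was 1.18 ± 0.26 above that at 12 h (adjusted p = 1.22e-14). For Stat3 the dose effect at 12 h minus that at 4 h was -1.70 ± 0.21 (adjusted p = 4.21e-12). For Stat5a the same difference was -0.58 ± 0.17 (adjusted p = 0.0375), and this call was lost in edgeR (adjusted p = 0.0946), in limma (0.135), with library totals as size factors (0.101), with the replicate number as a block (0.0649) and when replicate 1, 2 or 3 was left out of every group (0.653, 0.142 and 0.127). Stat2 missed the threshold (adjusted p = 0.0553), and it passed with library totals as size factors (0.0258) and with a stricter filter on low counts (0.0450). It did not pass in edgeR (0.0568), in limma (0.0920), with a looser filter (0.0600) or with the replicate number as a block (0.0875). Nor did it pass when replicate 1, 2 or 3 was left out of every group (0.559, 0.513 and 0.0748). Stat6 and Stat5b were at adjusted p = 0.134 and 0.743.

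The second comparison sets each immunised group against untreated control cells, with the same 3 control libraries in every case. With 0.8 µg, 5 of 6 members changed at 4 h and 4 were called, 4 changed and 3 were called at 12 h, and 3 changed and 1 was called at 24 h. Over all genes, 54.6% changed and 40.7% were called at 4 h, 53.1% and 37.7% at 12 h, and 36% and 17.3% at 24 h. With 80 µg, 4 members changed at each time and 3, 2 and 1 were called, beside 57.1%, 52.7% and 39.1% of all genes changed and 43.5%, 37.9% and 20.2% called. At such background shares these counts are not a result about the family, and single members are described instead.

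Stat5a had the largest rise among the members. Its control level was 135, 129 and 104 normalised counts, and the libraries of 4 h listed above were all far higher. The rise was 9.82-fold with 0.8 µg and 11.8-fold with 80 µg (log2 fold changes 3.30 ± 0.14 and 3.56 ± 0.14, SE, n = 3, adjusted p = 2.18e-120 and 1.16e-141). It was still called at 12 h (1.68 ± 0.14 and 1.37 ± 0.14 on the log2 scale), when its levels were 398 ± 33.5 and 321 ± 19.4 (SD). At 24 h the levels of 164 ± 21.7 and 169 ± 22.3 were above control without overlap, by 0.40 and 0.45 on the log2 scale (adjusted p = 0.0254 and 0.00766). Those last differences did not pass without control replicate 3 (0.30 and 0.36), without replicate 1 or 3 of the 0.8 µg group (0.36 and 0.34), without replicate 3 of the 80 µg group (0.34), with library totals as size factors (0.27 and 0.22) or in fits of the compared groups alone (0.42 and 0.45).

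Stat5b, whose start site is 8626 bases from that of Stat5a, was not shown to change at 4 h. Its control libraries held 232, 255 and 341 normalised counts and its 4 h libraries 217 to 286, and the intervals against control were -0.40 to 0.24 with 0.8 µg and -0.53 to 0.11 with 80 µg. It fell at 12 h, to 168 ± 18.2 and 156 ± 3.62 normalised counts, with log2 fold changes of -0.70 ± 0.17 and -0.81 ± 0.16 (SE, n = 3, adjusted p = 7.85e-05 and 3.46e-06). At 24 h it was at 212 ± 29.3 and 228 ± 28.7, which did not pass against control (adjusted p = 0.0611 and 0.192). With 0.8 µg it passed without control replicate 1 or without replicate 2 of the 24 h group (-0.48 in both cases), and at both doses it passed with library totals as size factors (-0.51 and -0.50).

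Stat3 was at 730, 745 and 628 normalised counts in control. It rose at 4 h with both doses, with log2 fold changes of 1.36 ± 0.15 for 0.8 µg and 2.30 ± 0.15 for 80 µg (SE, n = 3, adjusted p = 8.2e-19 and 1.32e-52), and no library overlapped with control. At 12 h it was still called with 0.8 µg (1.18 ± 0.15) and was at 0.42 ± 0.15 with 80 µg (adjusted p = 0.0106), which did not pass without control replicate 3 (0.35, adjusted p = 0.0689). At 24 h its libraries overlapped with control, with intervals of -0.31 to 0.28 and -0.30 to 0.29.

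Stat4 was below control at 4 h. The control libraries held 162, 199 and 227 normalised counts, against 5.24 ± 4.46 with 0.8 µg and 49.2 ± 3.54 with 80 µg (SD), without overlap. The log2 fold changes were -4.84 ± 0.36 and -1.97 ± 0.21 (SE, n = 3, adjusted p = 5.59e-34 and 1.37e-19). NK cells also express Stat4, and the 3 NK cell markers summed to 16.9 to 25.3 CPM in the control libraries, to 0 to 0.29 CPM with 0.8 µg at 4 h and to 0 to 1.28 CPM with 80 µg, and their part in this difference was not tested. At 12 h Stat4 was at 206 ± 53.6 and 165 ± 13.9, overlapping with control, while the NK cell markers were at 0.47 to 1.28 CPM and 0.58 to 0.84 CPM. At 24 h it was above control with 80 µg (0.54 ± 0.18, adjusted p = 0.00995), which did not pass without control replicate 1 (0.43) or with library totals as size factors (0.31), and with 0.8 µg the interval was -0.67 to 0.078. The NK cell markers at 24 h summed to 4.73 to 7.39 CPM with 0.8 µg and to 8.59 to 9.93 CPM with 80 µg. Their part in the Stat4 difference between the doses at 24 h was not tested.

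Stat2 was at 128, 152 and 108 normalised counts in control and was lower at 4 h (log2 fold change -2.24 ± 0.27 for 0.8 µg and -0.97 ± 0.24 for 80 µg, SE, n = 3, adjusted p = 1.54e-15 and 0.000141). It was still low at 12 h (-1.45 ± 0.25 and -1.14 ± 0.24). By 24 h it stood above control, and its log2 fold changes were 1.01 ± 0.22 and 1.21 ± 0.22 (adjusted p = 4.19e-05 and 4.13e-07), and no library overlapped with control. With 0.8 µg the value was under the fold threshold without control replicate 3 (0.91) or without replicate 2 of that group (0.74). With library totals as size factors neither 24 h value was above it.

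Stat6 was at 292, 251 and 274 normalised counts in control. It rose at 4 h with 0.8 µg (0.72 ± 0.12, SE, n = 3, adjusted p = 1.38e-08), while with 80 µg at 4 h the interval was -0.21 to 0.28. At 12 h the libraries overlapped with control and the intervals were -0.17 to 0.31 and -0.43 to 0.062. At 24 h it was below control at both doses, at -0.40 ± 0.13 with 0.8 µg and -0.68 ± 0.13 with 80 µg (adjusted p = 0.00609 and 7.18e-07), and the first of these did not pass without control replicate 1 (-0.35, adjusted p = 0.0520) or in a fit of the compared groups alone (-0.38, adjusted p = 0.0579).

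**Figure D3:**
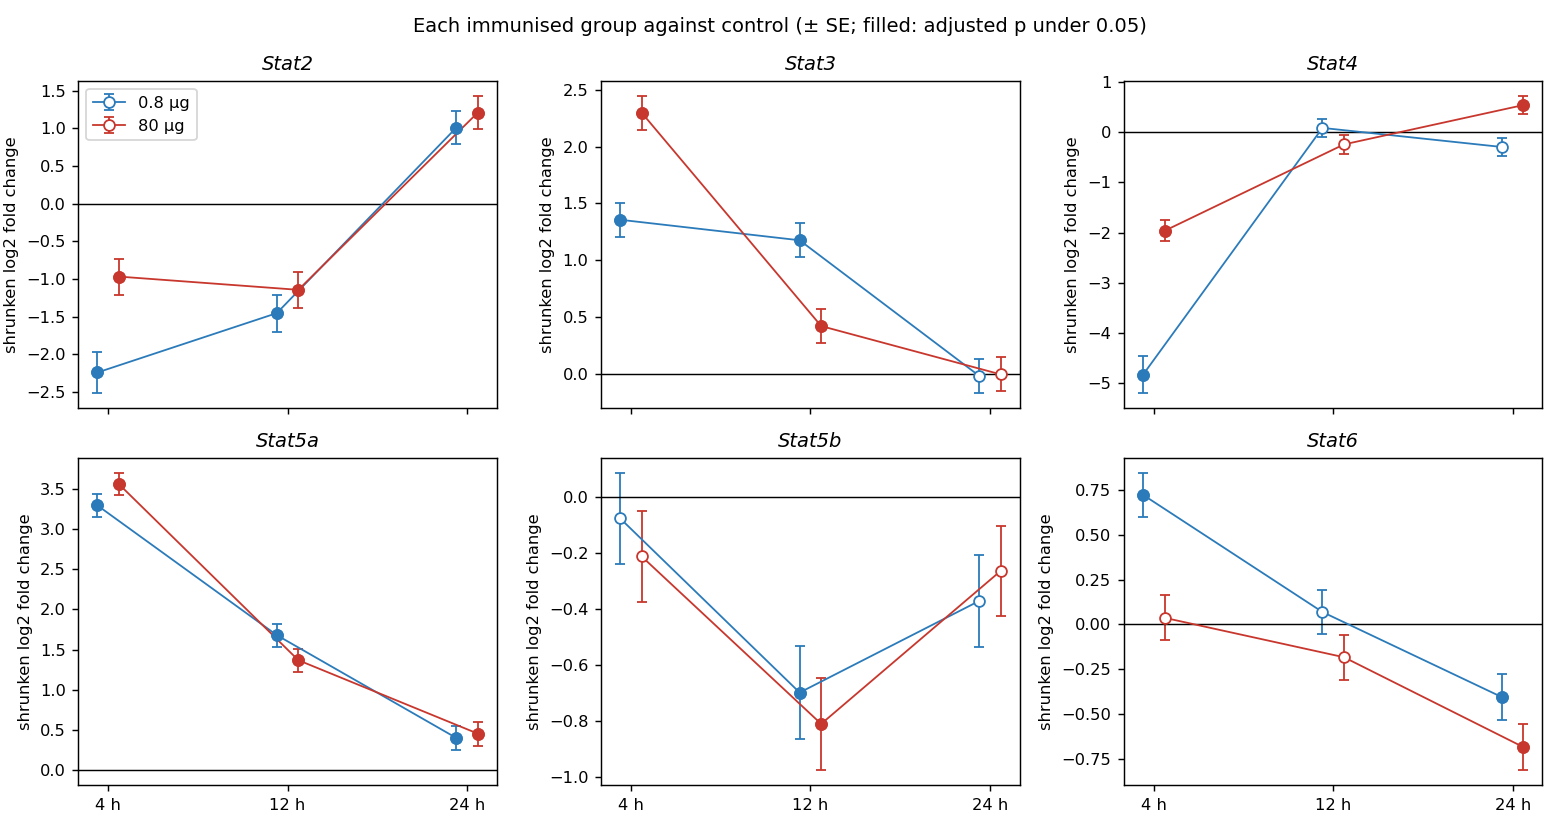
Shrunken log2 fold change against control (y axis, scaled to each gene) at 4 h, 12 h and 24 h (x axis) with 0.8 µg and 80 µg, with the SE as error bars, 3 mice per group and the same 3 control libraries throughout. Filled points had an adjusted p under 0.05. Stat5a started at 3.30 and 3.56 and came down, Stat2 went from below to above control, and Stat5b was lowest at 12 h.

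The third comparison follows each dose from one time to the next, in which the sorting gate changes too. With 0.8 µg, 5 members changed and 2 were called from 4 h to 12 h, and 4 changed and 3 were called from 12 h to 24 h, beside 39.1% and 44% of all genes changed and 20.5% and 26.6% called. With 80 µg, 4 changed and 3 were called in the first step, and 6 of 6 changed and 1 was called in the second, beside 42.9% and 44.7% changed and 24.8% and 27.2% called. From 4 h to 12 h Stat4 rose at both doses, with log2 fold changes of 4.93 ± 0.36 for 0.8 µg and 1.73 ± 0.21 for 80 µg (SE, n = 3), and Stat5a fell, with -1.62 ± 0.12 and -2.19 ± 0.12. Stat3 fell with 80 µg (-1.87 ± 0.15, adjusted p = 2.23e-35), while with 0.8 µg the interval was -0.47 to 0.11. Stat6 fell with 0.8 µg (-0.65, adjusted p = 4.52e-07) and was at -0.22 with 80 µg (interval -0.46 to 0.021), and Stat5b fell at both doses (-0.62 and -0.60). Stat2 rose with 0.8 µg (0.79, adjusted p = 0.0167), which did not pass without replicate 3 of the 4 h group (0.56) or in a fit of those groups alone (0.75, adjusted p = 0.0953), and with 80 µg its interval was -0.67 to 0.31.

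From 12 h to 24 h Stat2 rose at both doses, with log2 fold changes of 2.46 ± 0.24 and 2.35 ± 0.23 (SE, n = 3, adjusted p = 2.18e-23 and 3.39e-23) and without overlap. Stat5a fell (-1.28 and -0.91), and the value for 80 µg was past the fold threshold without replicate 3 of the 24 h group (-1.03). Stat3 fell with 0.8 µg (-1.19) and with 80 µg (-0.42, adjusted p = 0.0117), and the latter did not pass without replicate 3 of the 12 h group (-0.38) or replicate 2 of the 24 h group (-0.37). Stat6 fell at both doses (-0.47 and -0.50). Stat4 rose with 80 µg (0.79, adjusted p = 6.67e-05) and was at -0.38 with 0.8 µg (adjusted p = 0.0853), which passed without replicate 3 of the 12 h group (-0.56) and with library totals as size factors (-0.52). Stat5b rose with 80 µg (0.55, adjusted p = 0.00262), which did not pass with library totals as size factors (0.34), and was at 0.33 with 0.8 µg (adjusted p = 0.0978).

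Each member's groups were also set in order of mean level, and neighbours in that order were compared. For Stat2 the order was 80 µg and 0.8 µg at 24 h, control, 80 µg at 4 h, 80 µg and 0.8 µg at 12 h, and 0.8 µg at 4 h. The doses at 24 h overlapped and did not pass, and neither did 80 µg at 4 h and 12 h, while the doses at 12 h did not pass although their libraries did not overlap. For Stat3 the order was 80 µg and 0.8 µg at 4 h, 0.8 µg and 80 µg at 12 h, and then 80 µg at 24 h, control and 0.8 µg at 24 h, of which the last 3 overlapped and did not pass, nor did 4 h and 12 h with 0.8 µg. For Stat4, 80 µg at 24 h was above 0.8 µg at 12 h (log2 fold change 0.46, adjusted p = 0.0278, beside 45.4% of all genes changed between those groups). Control, 80 µg at 12 h and 0.8 µg at 24 h followed without a step that passed (42.7% of all genes changed between the last pair), then came 80 µg at 4 h (a step of 1.67, adjusted p = 2.22e-14, beside 56.5%) and last 0.8 µg at 4 h.

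For Stat5a the order was 4 h, 12 h, 24 h and control, with 80 µg above 0.8 µg at 4 h and 24 h and below it at 12 h. No dose pair of Stat5a passed by DESeq2, but at 12 h every 0.8 µg library (423, 411 and 360 normalised counts) lay above every 80 µg library (323, 339 and 300). For Stat5b none of the 6 neighbouring pairs passed by DESeq2, from control at 276 ± 57.7 normalised counts (SD, n = 3) through 0.8 µg and 80 µg at 4 h, 80 µg and 0.8 µg at 24 h (57.9% of all genes changed between 80 µg at 4 h and at 24 h) to 0.8 µg and 80 µg at 12 h. For Stat6 the highest group, 0.8 µg at 4 h, was above the next, 0.8 µg at 12 h. The groups after it, namely 80 µg at 4 h, control, 80 µg at 12 h, 0.8 µg at 24 h and 80 µg at 24 h, each did not pass against the one before (40.9% of all genes changed between 0.8 µg at 12 h and 80 µg at 4 h). Of these, 0.8 µg at 24 h lay wholly below 80 µg at 12 h, and 80 µg at 24 h (184, 169 and 158 normalised counts) lay wholly below 0.8 µg at 24 h (207, 195 and 215). The highest group mean was 12.0 times the lowest for Stat5a, 11.4 times for Stat2, 5.00 times for Stat3, 2.64 times for Stat6 and 1.77 times for Stat5b, and no ratio is given for Stat4, whose lowest group held only the 10, 1 and 4 reads given above.

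The genes whose pattern was most like each member were found by the Pearson correlation of log2(normalised count + 1) over the 21 samples, among 6635 genes whose mean was 50 normalised counts or more. The samples fall into the same 7 groups for every gene, so these values describe shared group patterns. Closest to Stat2 were Apobec3 (r = 0.971), Trim30a (0.962) and Oas3 (0.959), which encodes an interferon-induced enzyme. Among the genes closest to Stat5a were Slc7a1 (0.986), an amino acid transporter, and Otud4 (0.980). Stat3 was closest to Tmem131l (0.961), Cblb (0.956), a ubiquitin ligase that restrains T cell activation, and Map2k3 (0.946). Stat4 was closest to Prkaa1 (0.943), Ccr7 (0.926), a homing receptor of naive T cells, and Fli1 (0.920). Stat6 was closest to Bcor (0.947), Usp34 (0.932) and Spen (0.908), and Stat5b to Clcn4 (0.875), Sidt2 (0.866) and Krit1 (0.858).

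Of the 4 Janus kinases, which activate STAT proteins, 1 was called between doses at 4 h and 0 at 12 h and 24 h. Of all genes, 5.85%, 2.79% and 1.56% were called between doses at those times. That gene was Tyk2, the kinase of interferon and IL-12 receptors, whose normalised counts were 102 ± 21.2 at the low dose and 50.5 ± 12.4 at the high dose (SD, n = 3), a log2 fold change of -1.01 ± 0.25 (SE, adjusted p = 0.000679). By adjusted p alone, 1 kinase was higher and 1 lower with 80 µg at 4 h, 0 changed at 12 h and 1 was lower at 24 h. Beside these, 12%, 6.27% and 5.93% of all genes changed. The kinase that changed at 24 h was again Tyk2, at 129 ± 23.9 with 0.8 µg and 72.8 ± 6.05 with 80 µg. Jak2, which serves interferon-gamma and IL-12 receptors among others, rose from 194 ± 10.6 in control to 1204 ± 221 with 0.8 µg and 1629 ± 210 with 80 µg at 4 h, and was below control at 12 h, at 91.6 ± 16.3 and 110 ± 16.9. Its log2 fold changes against control were 2.62 and 3.06 at 4 h and -1.06 and -0.80 at 12 h. Jak1, used by many cytokine receptors, fell from 4354 ± 445 to 1557 ± 61.5 and 1367 ± 60.9 at 4 h (log2 fold changes -1.48 and -1.67) and was at 3197 ± 236 and 3612 ± 270 at 24 h. Jak3, the partner of the common gamma chain, was at 35.5 ± 13.2 in control and at 62.1 to 87.0 in the group means after immunisation.

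**Figure D4:**
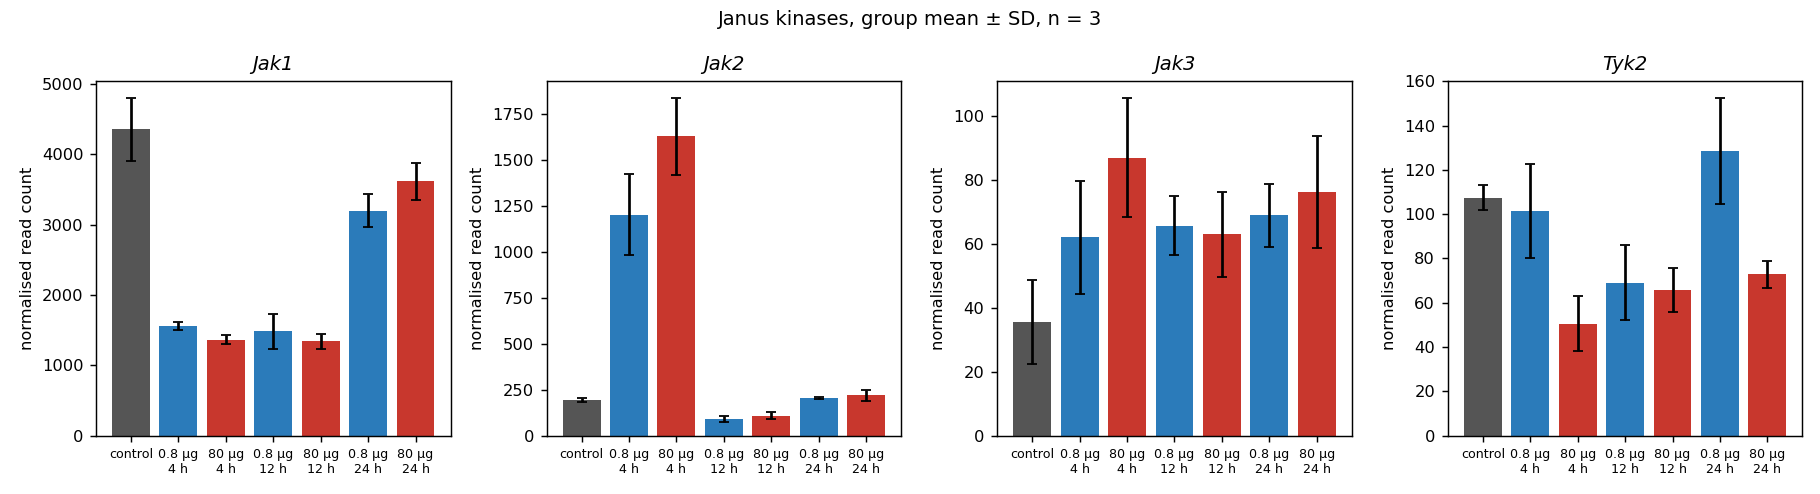
Mean normalised read count (y axis, from 0) of the 4 Janus kinases in each group (x axis), with the SD of 3 mice as error bars. Jak1 was low at 4 h and 12 h, and Jak2 was high at 4 h, at 1204 and 1629, and low at 12 h.

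Of 19 receptor chains tested at 4 h, 80 µg gave 7 calls above and 1 below 0.8 µg, with a median log2 fold change of 0.36 beside -0.023 over all genes. At 12 h 2 of 19 were called higher, and at 24 h 2 of 18 were called higher and 1 lower. For this list and those that follow, the share of all genes called between doses in either direction was 5.85% at 4 h, 2.79% at 12 h and 1.56% at 24 h. Il12rb2, the inducible chain of the IL-12 receptor that signals to STAT4, had 2 reads in all 3 libraries of 0.8 µg at 4 h together and 141 with 80 µg, a ratio of 61.6 after scaling (exact 95% interval for counting error only, 16.7 to 514). It was also higher with 80 µg at 12 h (1.33 ± 0.41, SE) and 24 h (2.79 ± 0.50). Il7r, the IL-7 receptor chain, was at 2627 ± 594 normalised counts (SD, n = 3) in control and at 14.5 ± 3.44 and 64.5 ± 11.4 with 0.8 µg and 80 µg at 4 h, a dose difference of 2.04. Il2ra, the high-affinity IL-2 receptor chain, was at 1323 ± 317 and 4206 ± 99.7 at 4 h (dose difference 1.65), and the 12 h levels were 887 ± 189 and 1968 ± 56.4 (1.13). Il10ra was higher with 80 µg at 4 h and 24 h (1.70 and 1.18), whereas Il10rb was lower at 4 h (-1.22) and Ifngr2, an interferon-gamma receptor chain, at 24 h (-1.17).

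Among the ligands, 8 of 14 listed genes passed the filter and 6 could be tested between doses at 4 h, of which 5 were called higher with 80 µg and 0 lower. At 12 h 3 of 6 and at 24 h 1 of 5 were called higher, and 0 lower. Il21, a STAT3-activating cytokine of helper T cells, had 2 reads in the 0.8 µg group at 4 h and 454 in the 80 µg group, and at 12 h it was at 2.39 ± 2.45 against 204 ± 42.0 normalised counts (SD, n = 3). Ifng, the T helper 1 cytokine, was at 4.11 ± 3.67 and 315 ± 397 at 4 h, with a wide spread from 52.3 to 772 between the 80 µg mice. At 12 h Ifng had the opposite order, with 157 ± 72.7 for 0.8 µg and 30.9 ± 3.59 for 80 µg and no overlap, but its log2 fold change of -2.04 ± 0.73 (SE) did not pass (adjusted p = 0.0893). Lif, a STAT3-activating cytokine, was at 15.4 ± 15.3 and 252 ± 47.1 at 4 h. Il2, which signals to STAT5, was higher with 80 µg at 4 h, at 1514 ± 439 against 155 ± 44.2 (log2 fold change 3.21). It was also higher at 12 h, at 75.0 ± 19.9 against 18.2 ± 6.43 (1.97).

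Of 16 inhibitors, 80 µg gave 2 calls above and 1 below 0.8 µg at 4 h, and 1 was called higher at each later time. Socs3, the feedback inhibitor of STAT3 signalling, was higher with 80 µg at 4 h, 12 h and 24 h (log2 fold changes 4.06 ± 0.46, 1.55 ± 0.44 and 1.34 ± 0.44, SE). At 4 h it was at 17.2 ± 6.46 and 344 ± 101 normalised counts (SD, n = 3), on either side of its control level of 230 ± 12.0. Socs1, a feedback inhibitor of interferon-gamma and IL-2 signalling, was at 159 ± 87.5 and 856 ± 107 at 4 h (2.35). Ptpn6, which encodes the phosphatase SHP-1, was at 875 ± 141 with 0.8 µg and 232 ± 17.9 with 80 µg at 4 h (-1.91 ± 0.13), and its means in control and all groups of 12 h and 24 h lay between 708 and 812. Of 5 listed cofactors 0 were called between doses. Irf9, the partner of STAT2, was below control at 4 h (-1.30 and -1.06), as Stat2 was, and did not pass against control at 24 h (0.22 and 0.21, adjusted p = 0.255 and 0.264).

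Of the interferon-stimulated genes listed as targets of STAT2 with IRF9, 0 of 13 were called between doses at each time. Their median log2 fold changes between doses were 0.34, -0.26 and 0.10 at 4 h, 12 h and 24 h. Some had few reads at 4 h, such as Mx1 at 1.57 normalised counts with 0.8 µg and 4.31 with 80 µg (interval -1.16 to 4.08). Isg15 was at 78.8 and 130. At the small shares of all genes called between doses, 0 calls in so short a list do not show that dose had no effect. Against control, 9 of 14 were called lower at 4 h with either dose, while 10 of 14 with 0.8 µg and 13 of 14 with 80 µg were called higher at 24 h. At 12 h 6 were called lower and 1 higher with 0.8 µg, and 8 lower and 2 higher with 80 µg. Of all genes, 40.7% and 43.5% were called in either direction at 4 h, 37.7% and 37.9% at 12 h and 17.3% and 20.2% at 24 h. Their median log2 fold changes against control were -2.12 and -2.21 at 4 h, -1.33 and -1.66 at 12 h and 1.88 and 2.05 at 24 h, beside medians of all genes between -0.15 and 0. These signs were those of Stat2 at the same times, with the same control libraries in both. The genes called against the direction of the list were Isg15, above control at 4 h with 80 µg (1.10) and at 12 h with both doses (1.63 and 1.85), and Bst2, above control at 12 h with 80 µg (1.52), which also stands on the plasmacytoid dendritic cell marker list.

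Between doses, 7 of 8 listed STAT3 targets and 6 of 6 STAT4 targets were called higher with 80 µg at 4 h and 0 lower, with medians of 3.07 and 2.30. At 12 h 5 of 8 and 3 of 6, and at 24 h 3 of 7 and 4 of 6, were called higher, again with 0 lower. Named STAT3 targets beside Socs3 and Il21 were Maf, a transcription factor that promotes Il10 expression, at 37.2 ± 19.2 and 476 ± 74.3 normalised counts at 4 h (SD, n = 3), and Rora, a nuclear receptor of IL-17-producing T cells, at 128 ± 111 and 886 ± 172 at 12 h. Named STAT4 targets beside Ifng and Il12rb2 were Il18rap, an IL-18 receptor chain, at 16.6 ± 2.03 and 89.2 ± 29.3 at 24 h, Furin, a protease, at 185 ± 10.1 and 689 ± 196 at 12 h, and Tbx21, which encodes T-bet, at 65.0 ± 24.1 and 188 ± 28.5 at 12 h. Rora, Furin and Tbx21 were also higher with 80 µg at 4 h. Their 4 h levels were 111 ± 60.9 and 1541 ± 129, 563 ± 137 and 2070 ± 207, and 150 ± 14.3 and 745 ± 106. The lists overlap, since Socs1, Socs2, Socs3, Cish, Il21, Ifng, Il12rb2, Il2ra, Osm, Il4ra, Il4 and Il13 each stand on more than 1, and binding of STAT proteins to any of these genes was not measured here.

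Of 8 STAT5 targets, 3, 2 and 1 were called higher with 80 µg at 4 h, 12 h and 24 h, and 1 was called lower, Lta at 24 h (-1.46 ± 0.24, SE). Pim1, a survival kinase, was at 256 ± 61.0 and 736 ± 77.0 normalised counts (SD, n = 3) at 12 h, and the 24 h levels were 370 ± 62.4 and 798 ± 59.4. Bcl2, a survival factor, was at 122 ± 29.6 and 255 ± 52.9 at 4 h, both below its control level of 1384 ± 205. Of 3 STAT6 targets that could be tested, Gfi1 was called higher (1.40 ± 0.45, SE) and Gata3, the T helper 2 transcription factor, lower (-1.59 ± 0.15) with 80 µg at 4 h. At 12 h Gata3 was at 334 ± 51.1 with 0.8 µg and 65.5 ± 5.59 with 80 µg (-2.33 ± 0.17, adjusted p = 1.02e-40).

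**Figure D5:**
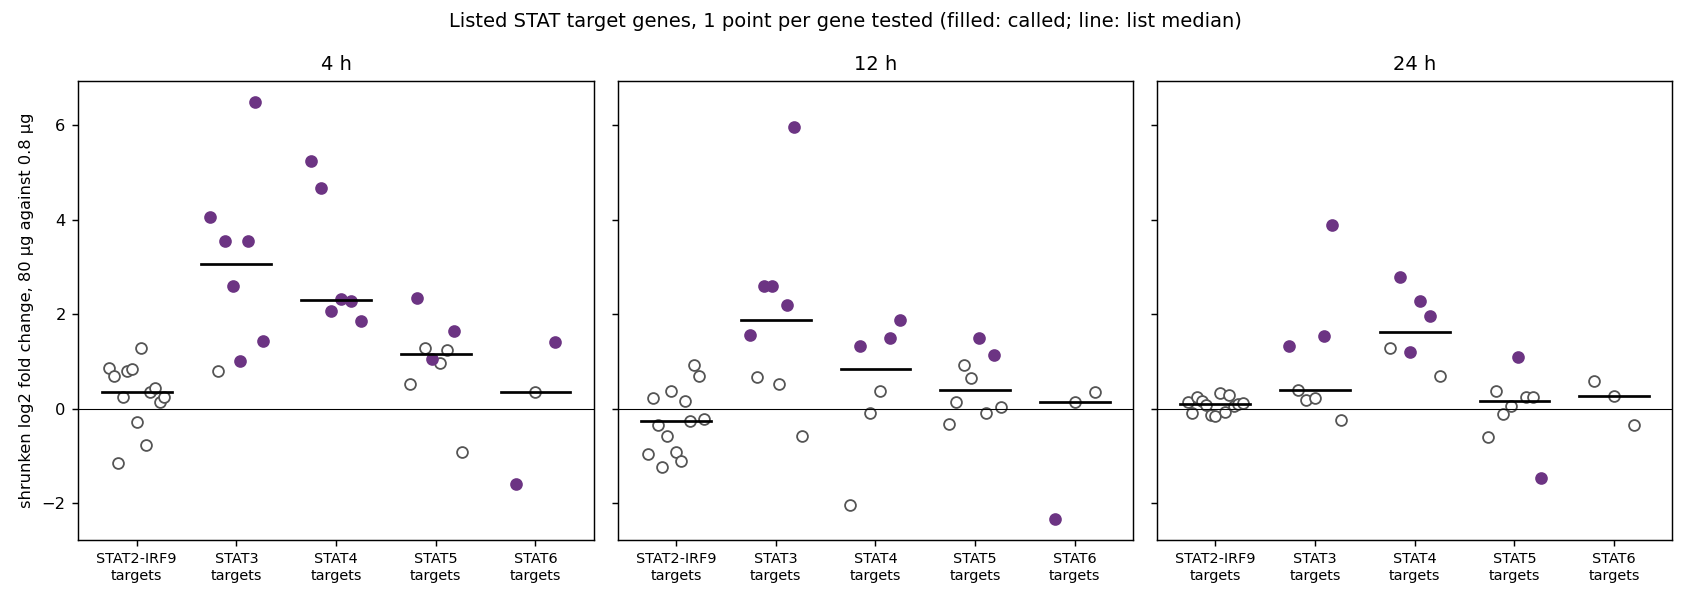
Shrunken log2 fold change of 80 µg against 0.8 µg (y axis) for each listed target gene that was tested, by list (x axis), at 4 h, 12 h and 24 h. Filled points were called, open points were not, and the horizontal line is the median of the list. Of the interferon-stimulated genes 0 were called at each time, and of the STAT4 targets 6 of 6 were called at 4 h. Of all genes, 5.85%, 2.79% and 1.56% were called at 4 h, 12 h and 24 h.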

How the data were processed

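Sequencing of the 3′ ends of mRNA (QuantSeq FWD) was made by the authors from 21 libraries. The authors trimmed reads, aligned them with STAR 2.5.2a to GRCm38 (mm10) and counted them per gene with HTSeq, and the deposited counts are whole reads per Ensembl gene. The annotation release, strand setting and use of molecular identifiers are not given in the sources used here. The deposited log2 values are regularised log values made by the authors with DESeq2, and they served here for gene names and for the limma alternative. There were 0 columns of per-sample values left unused.

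Counts were fitted with DESeq2 1.42.0 in R 4.3.3, as 1 model of 7 groups, after removing genes with fewer than 10 counts over all samples. Wald tests were two-sided, p-values were adjusted by the Benjamini-Hochberg method over all genes of a comparison, and fold changes were shrunk by the normal prior of DESeq2. Intervals are 95% intervals of unshrunken values. The 13 comparisons were 3 of dose, 6 with control and 4 time steps, and further pairs were tested for the order of levels. Alternatives used edgeR 4.0.16 and limma 3.58.1, other size factors, filters and samples, and are given in the closing section. The fitting steps were tested on simulated data. Replicates are separate mice, and totals of 2352800 to 6244279 counts set the precision.

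All members are named. From each pathway list, up to 3 called genes per direction whose mean reached 20 normalised counts were named by size of change, as were the Janus kinases and Irf9. The 3 genes most like each member were named too, of which 1 is not reported here. Isg15, Bst2, the 12 h values of Ifng and the 4 h values of Il2, Rora, Furin and Tbx21 were added after their values were seen. The members and lists were chosen with earlier results of these data known.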

Additional observations from a re-analysis of the deposited data

Results flagged for a closer look

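For 3 members the effect of dose differed between times by a test of the interaction itself. The largest difference between the dose effects at 2 times was 3.47 on the log2 scale for Stat4 (4 h against 12 h), where 80 µg was above 0.8 µg at 4 h and overlapped with it at 12 h. It was 1.70 for Stat3 between the same times, where the sign of the dose effect turned. It was 0.577 for Stat5a, whose interaction did not pass in 7 of the alternatives tried. Beside these, 10.4% of all genes tested passed.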

How the results depend on the processing

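With 3 mice per group and 1 to 10 reads of Stat4 with 0.8 µg at 4 h, small differences could not be resolved. Over the alternatives to the fold changes of members, 604 values kept direction and side of the threshold, 8 no longer passed, 4 newly passed and 8 changed sign, and with 1 library left out these were 433, 11, 4 and 20. No value that passed changed sign. For 0.8 µg at 24 h against control the count called, 1, became 0 with library totals as size factors and with limma (0 to 1 with 1 library left out), and the count changed, 3, became 1 in a fit of those groups alone. The count called for 80 µg at 24 h against control, 1, became 0 with library totals, and that for 80 µg from 12 h to 24 h, 1, became 2 with library totals and with those groups alone (1 to 2 with 1 library left out). The cause was not tested. Library totals moved the fold changes of all genes by -0.24 to 0.15, and by over 0.1 in 9 of 13 comparisons. Sign changes with library totals were -0.096 for Stat3 and -0.052 for Stat5a between doses at 24 h and -0.12 for Stat6 with 80 µg at 4 h against control. In fits of the compared groups alone Stat3 was at -0.013 between doses at 24 h and at 0.0021 with 0.8 µg at 24 h against control. With 80 µg at 24 h against control Stat3 was at 0.014 in edgeR and 0.0015 in limma. Leaving out 1 library gave ranges of -0.060 to 0.098 for Stat3, -0.063 to 0.12 for Stat5a and -0.0057 to 0.47 for Stat2 between doses at 24 h, -0.18 to 0.097 for Stat5b with 0.8 µg at 4 h, -0.093 to 0.27 for Stat4 with 0.8 µg at 12 h, -0.10 to 0.037 and -0.073 to 0.047 for Stat3 with 0.8 µg and 80 µg at 24 h and -0.021 to 0.091 for Stat6 with 80 µg at 4 h, each against control, and -0.31 to 0.026 for Stat3 from 4 h to 12 h with 0.8 µg. Same-numbered samples did not deviate together (correlations of -0.098 to 0.16, over 0.1 for every pair in 0 of 13 comparisons). With the replicate block Stat3 was at 0.0023 with 80 µg at 24 h against control, and the block changed no other direction or call in the pairwise comparisons, and Stat5a missed the interaction threshold (adjusted p = 0.0649).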
